A study of Homo sapiens with 12 samples.

Results

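The genes described here act in mitosis. They were 50 listed gene symbols, and the rule that selects their rows uses no measured value. Of the 46639 gene symbols in the table, the rows of these 50 were summed per symbol and followed across the 4 groups of the study. They were arranged by role into 9 genes of mitotic entry, 4 of the chromosomal passenger complex, 6 of the spindle assembly checkpoint, 7 of the kinetochore, 13 of the spindle, 5 of chromosome structure, 4 of anaphase and 2 of cytokinesis.

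RNA was sequenced from MOLM-13, an acute myeloid leukemia (AML) cell line that carries an MLL-AF9 fusion and was grown with GM-CSF. Cells were untreated, or received decitabine (DAC, a hypomethylating nucleoside) at 100 nM, ATRA (all-trans retinoic acid, the ligand of retinoic acid receptors) at 1 µM, or both (DAC+ATRA), with 3 libraries a group. By label, untreated cells were taken at 96 h and treated cells at 72 h, whereas the series' design gives 1 harvest at 72 h. In each comparison with untreated cells, treatment and this labelled time cannot be told apart. By the study's methods DAC was renewed daily and ATRA was added with the last dose of DAC. The libraries are technical triplicates of 1 line, so every p-value measures only the spread within 1 experiment, and no vehicle control was among them.

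A cell enters mitosis when CDK1, bound to cyclin A or B, is switched on by the CDC25 phosphatases. Chromosomes then condense, kinetochores attach them to the spindle, and the checkpoint holds back the anaphase-promoting complex until all are attached. Most of these genes are transcribed mainly in G2 and mitosis, through a promoter element named the cell cycle genes homology region (CHR), which is bound by the DREAM complex in resting cells and by complexes of MuvB, MYBL2 and FOXM1 in dividing ones. ATRA is known to drive the differentiation of several AML lines, and differentiating myeloid cells leave the cell cycle.

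Reads counted on transcripts numbered, per library, 8951104 to 11944630 for untreated, 8363702 to 10685348 for ATRA, 4671214 to 6954604 for DAC and 5607158 to 7162775 for DAC+ATRA. Both groups given DAC thus had fewer counted reads, and the part of this depth in the results was not tested. Myeloid genes such as SPI1, CEBPA, MPO, LYZ and FLT3 had reads in all 12 libraries, whereas CD8A, MS4A1, COL1A2 and DCN, markers of other lineages, were at 0 in all 12. Of the other lineage markers, CD3D, CD79A, KRT8, KRT18 and COL1A1 had some reads in every library, with medians of 14.2 to 32.2. PTPRC, a marker shared by leukocyte lineages, was as low, with a median of 15.8. Values are normalised counts, that is, reads divided by the size factor of the library. Reads were counted per transcript, and levels of different genes cannot be compared. Exons of 30 of the 47 members tested overlap no other gene, while 4 are overlapped by another gene on the same strand (BUB1B, CENPA, NUSAP1 and PRC1) and 15 on the opposite strand, among them CCNA2, FOXM1, PLK1, SPC24, HMMR, KIF4A and NCAPG. Whether counting used the strand is not given in the sources used here, so the values of these genes are uncertain.

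The promoters of the mitosis genes share short sequences that had no part in the choice of the genes. RefSeq windows on GRCh38.p14, from 250 bases before a transcription start to 50 after it, were listed for 43 of the 50 genes. They were not listed for TTK, AURKA, BIRC5, FOXM1, UBE2C, BUB3 and TPX2. A CHR (TTTGAA or TTCGAA, on either strand) was found in the windows of 34 of these 43 genes (79.1%), against 19.5% of the 27305 genes with such windows. A CCAAT box, the site of the factor NF-Y, was found in 36 (83.7%), against 39.7% of all genes. Both motifs were found together in 29 (67.4%), against 7.85%. An E2F site (TTTCCCGC, TTTCGCGC, TTTGCCGC or TTTGGCGC, on either strand) was found in 3 of the 43 genes (6.98%), against 3.99% of all genes. Motifs were searched separately and may overlap each other.

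Shown here are the 150 bases before the start for 8 members, 5′ to 3′ on the strand of the gene, with the CHR, CCAAT box and E2F site in capitals (CCAAT reads ATTGG and TTTGAA reads TTCAAA where they lie on the opposite strand). CDK1, CCNB2, PLK1, BUB1B, CDC20 and KIF11 are shown for their CHR, and BUB1 and KIF20B because they had the lowest ratios of ATRA to untreated cells.
CDK1 chr10:60778328-60778477 (+ strand): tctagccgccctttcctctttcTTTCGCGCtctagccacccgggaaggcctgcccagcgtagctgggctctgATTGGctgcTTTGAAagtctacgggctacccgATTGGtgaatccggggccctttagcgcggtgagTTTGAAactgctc
CCNB2 chr15:59104996-59105145 (+ strand): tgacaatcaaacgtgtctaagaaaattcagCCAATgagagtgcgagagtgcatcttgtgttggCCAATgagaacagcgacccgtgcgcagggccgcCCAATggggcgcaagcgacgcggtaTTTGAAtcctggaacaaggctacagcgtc
PLK1 chr16:23678739-23678888 (+ strand): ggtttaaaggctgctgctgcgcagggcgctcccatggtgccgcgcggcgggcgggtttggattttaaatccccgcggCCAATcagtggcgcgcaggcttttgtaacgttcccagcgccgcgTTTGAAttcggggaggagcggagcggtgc
BUB1B chr15:40160919-40161068 (+ strand): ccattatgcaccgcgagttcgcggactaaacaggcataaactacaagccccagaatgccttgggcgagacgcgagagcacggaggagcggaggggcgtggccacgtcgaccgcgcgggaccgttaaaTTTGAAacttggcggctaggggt
CDC20 chr1:43358831-43358980 (+ strand): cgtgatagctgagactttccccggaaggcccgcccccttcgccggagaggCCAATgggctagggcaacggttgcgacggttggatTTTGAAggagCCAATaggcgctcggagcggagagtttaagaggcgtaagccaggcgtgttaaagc
KIF11 chr10:92592980-92593129 (+ strand): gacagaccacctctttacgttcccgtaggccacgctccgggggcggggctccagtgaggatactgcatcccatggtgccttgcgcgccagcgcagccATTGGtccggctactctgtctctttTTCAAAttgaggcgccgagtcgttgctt
BUB1 chr2:110678064-110678213 (- strand): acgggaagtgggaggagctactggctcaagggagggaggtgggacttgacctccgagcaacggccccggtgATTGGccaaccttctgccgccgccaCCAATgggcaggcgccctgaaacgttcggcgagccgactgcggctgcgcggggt
KIF20B chr10:89701440-89701589 (+ strand): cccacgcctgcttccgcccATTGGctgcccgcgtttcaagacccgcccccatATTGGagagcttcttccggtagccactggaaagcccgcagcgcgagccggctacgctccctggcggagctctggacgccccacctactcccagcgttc
The first 6 sequences each hold a CHR near the start. Its first base is 13 and 69 bases before the start in CDK1, 29 in CCNB2 and PLK1, 23 in BUB1B, 65 in CDC20 and, on the opposite strand, 28 in KIF11. BUB1 and KIF20B have none in the bases shown, and theirs begins at base 1 after the start in BUB1 and at bases 24 and 30 in KIF20B. A CHR between 60 bases before the start and 50 after it was present in 30 of the 43 genes.

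**Figure D1:**
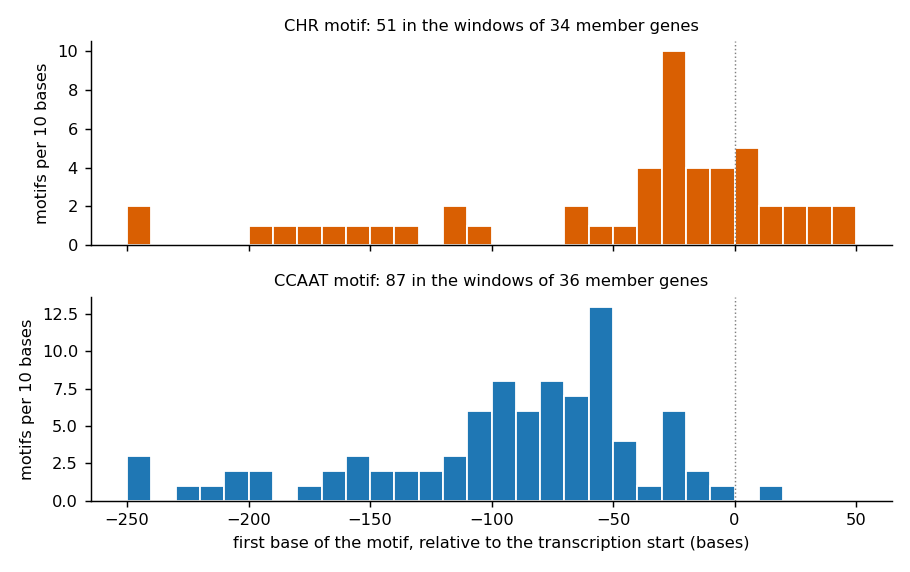
Histograms of the place of each CHR (upper panel, 51 motifs in 34 genes) and each CCAAT box (lower panel, 87 motifs in 36 genes) relative to the transcription start, in bins of 10 bases, with a motif counted once per window of a gene. CHR motifs had their median at 28 bases before the start and CCAAT boxes at 85 bases before it.

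The median member was lower in every library that had received ATRA. Of the 50 genes, 47 reached 10 normalised counts in 3 or more libraries and were tested, and 37 reached it in all 12. All 47 passed with libraries of more than 1 group, so none passed through a single high group. NUF2, SGO1 and KIFC1 were left out, with at most 6, 6 and 5 reads in any library. SGO1 and KIFC1 had no read in the 3 ATRA libraries, where a count of 0 allows up to 3 reads per library.

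Relative to the mean of the untreated libraries, the median log2 ratio of the 47 members was -0.0051, 0.097 and -0.089 in the untreated libraries themselves and 0.17, 0.15 and 0.24 with DAC. It was -0.83, -0.92 and -1.36 with ATRA and -0.56, -0.77 and -0.80 with DAC+ATRA. The ATRA libraries lay lowest, the DAC+ATRA libraries lay next, and the DAC libraries lay slightly above the untreated ones, with no overlap between libraries with and without ATRA. ATRA replicate 3 was the lowest ATRA library for 38 of the 47 genes. Of every 10000 reads, 47.3 to 53.0 came from the 47 members in untreated cells, 52.4 to 60.9 with DAC, 21.4 to 29.0 with ATRA and 29.5 to 31.8 with DAC+ATRA. In such bulk RNA, fewer cells in mitosis and less of these transcripts per cell cannot be told apart.

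**Figure D2:**
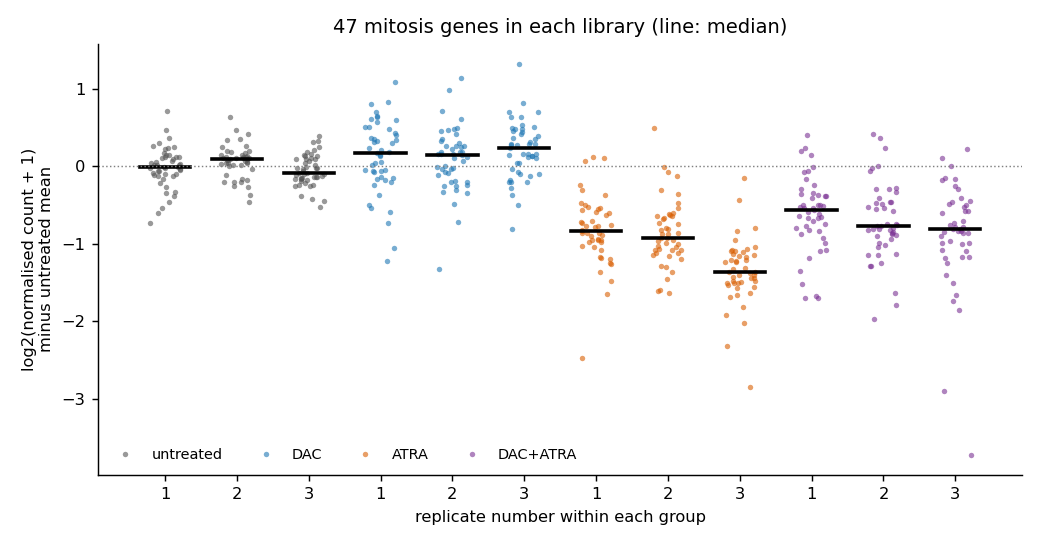
Each point is 1 of the 47 tested mitosis genes in 1 library, as log2(normalised count + 1) minus the mean of the 3 untreated libraries for that gene, and the black line is the median of the library. Medians lie between -0.089 and 0.24 in the 6 libraries without ATRA and between -1.36 and -0.56 in the 6 libraries with it.

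To ask what ATRA alone did to the program, ATRA was compared with untreated cells with limma on log2(normalised count + 1) over all 10642 genes tested, and a gene was called at a Benjamini-Hochberg adjusted p under 0.01. Of the 47 members, 34 were lower and 0 were higher, where 14.0% of all genes tested were called lower. The 13 others also had negative changes. The median change was -1.04 on the log2 scale, against -0.04 for all genes tested. Every ATRA library lay below every untreated library for 41 of the 47, where 26.6% of all genes did so. Members were lower in each role, namely 6 of 9 of mitotic entry, 3 of 4 of the passenger complex, 4 of 5 of the checkpoint, 4 of 6 of the kinetochore, 8 of 12 of the spindle, all 5 of chromosome structure, 3 of 4 of anaphase and 1 of 2 of cytokinesis. Without ATRA replicate 3 the count was 23 and the median -0.84, and without untreated replicate 2 the count was 25. The call was kept whichever library was left out for 23 of the 34.

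**Figure D3:**
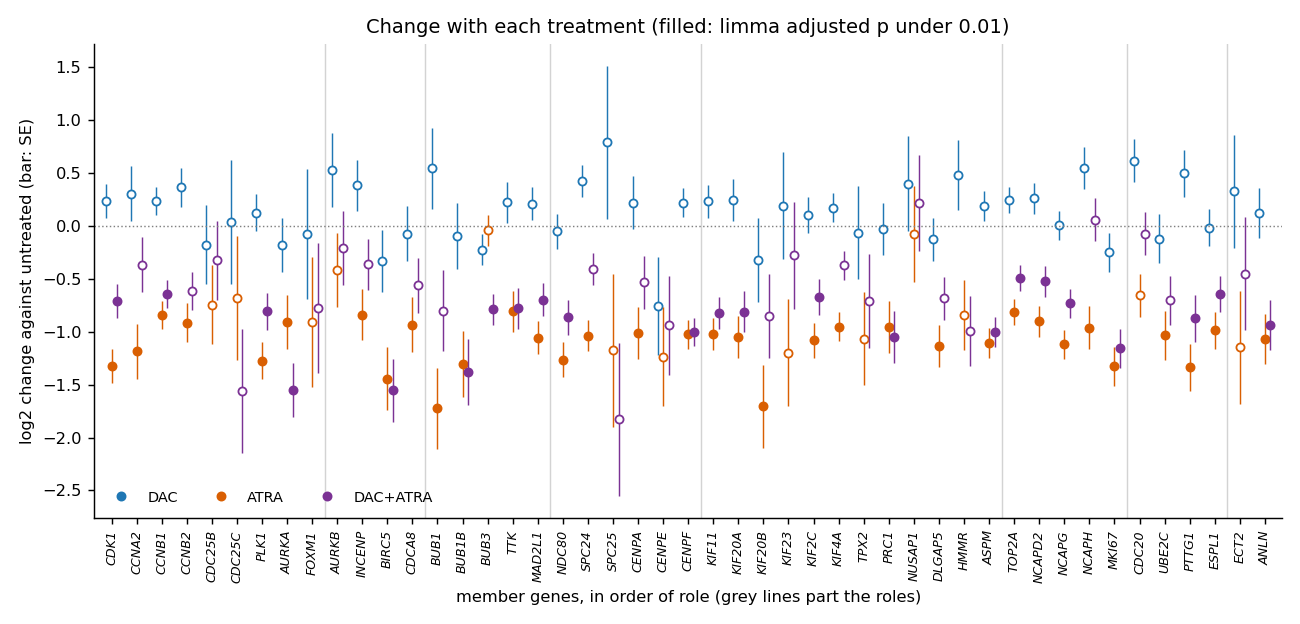
Log2 change against untreated cells for each tested member, in order of role, with DAC in blue, ATRA in orange and DAC+ATRA in purple, filled where the limma adjusted p is under 0.01 and with bars for the SE. All 34 filled orange and 23 filled purple points lie below 0, and no blue point is filled.

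Among the genes of mitotic entry, CDK1 (chr10:60778331-60794852 on GRCh38), the kinase that starts mitosis, was at 380.3, 435 and 344 normalised counts in the untreated libraries, 421, 405 and 549.7 with DAC, 149, 182 and 132 with ATRA and 272, 213 and 224 with DAC+ATRA, in the order of replicates 1, 2 and 3. All 6 libraries with ATRA lay below all 6 without it, and the 3 DAC+ATRA libraries lay above the 3 ATRA libraries. The log2 change was -1.33 ± 0.16 (SE) with ATRA (limma adjusted p = 1.82e-06). With DAC+ATRA it was -0.71 ± 0.16 (adjusted p = 0.00142), a call lost without DAC+ATRA replicate 2 or untreated replicate 2. Its partners fell with ATRA as well, with log2 changes of -1.18 ± 0.26 for CCNA2 (cyclin A2), -0.84 ± 0.13 for CCNB1 (cyclin B1) and -0.91 ± 0.18 for CCNB2 (cyclin B2). The CCNA2 call was lost when the highest transcript stood for the gene. PLK1, the polo-like kinase that promotes entry and spindle assembly, had a change of -1.27 ± 0.18 with ATRA and -0.81 ± 0.18 with DAC+ATRA, and both were called.

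AURKA (chr20:56369389-56392337), the kinase of the spindle poles, stood at 48.2, 89.3 and 80.3 normalised counts in the untreated libraries, 63.6, 61.2 and 60.96 with DAC, 37.6, 33.5 and 40.1 with ATRA and 21, 28.1 and 21.4 with DAC+ATRA. Its lowest group was DAC+ATRA, with all 3 libraries below all 3 ATRA libraries. AURKA changed by -0.91 ± 0.25 with ATRA and by -1.55 ± 0.25 with DAC+ATRA (adjusted p of 0.00784 and 6.51e-05). The ATRA call was lost when any one of ATRA replicates 1, 2 and 3 or untreated replicates 2 and 3 was left out, and with TMM scaling, among others. Both calls were lost when the highest transcript stood for the gene, with changes of -0.49 and -1.11 (limma adjusted p of 0.37 and 0.0319). Between both groups the change was -0.64 ± 0.25 (adjusted p = 0.0782), which did not pass.

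The phosphatases that activate CDK1 and the factor FOXM1 were not called in any comparison. CDC25B (chr20:3786772-3806121) was at 22.6, 28.4 and 20.1 normalised counts in the untreated libraries, 15.3, 21.95 and 26.1 with DAC, 17.9, 11.9 and 11.7 with ATRA and 22.4, 10.1 and 27.6 with DAC+ATRA. Its ATRA libraries lay below the untreated ones, with a change of -0.74 ± 0.37 and a 95% interval of -1.53 to 0.038. CDC25C had few counts over its 5 transcript rows, at 14.2 ± 1.92 (SD, n = 3) in untreated cells and 8.66 ± 2.67 with ATRA. FOXM1 (chr12:2857680-2877174), which drives transcription of mitotic genes, was at 13.2, 6.49 and 5.02 normalised counts in the untreated libraries, 5.09, 10.98 and 6.53 with DAC, 8.06, 2.98 and 1.67 with ATRA and 2.80, 10.1 and 2.04 with DAC+ATRA. Its counts were few and its groups overlapped, and the interval of -2.20 to 0.38 for ATRA spans both directions.

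In the chromosomal passenger complex, which corrects faulty attachments, BIRC5 (chr17:78214186-78225636), or survivin, was at 36.5, 53.6 and 52.1 normalised counts in the untreated libraries, 39.4, 39.2 and 32.7 with DAC, 16.1, 22.3 and 12.5 with ATRA and 14, 19.1 and 13.3 with DAC+ATRA. Both groups with ATRA lay below both groups without it and overlapped each other. The changes were -1.44 ± 0.30 with ATRA and -1.55 ± 0.30 with DAC+ATRA (adjusted p of 0.000699 and 0.000335). The scaffold INCENP had a change of -0.84 ± 0.24 and borealin, CDCA8, one of -0.93 ± 0.26 with ATRA, both close to the threshold with adjusted p of 0.00951 and 0.00807. With DAC+ATRA neither was called. Each of those 2 ATRA calls was lost without ATRA replicate 1 or 3 or untreated replicate 1 or 2, among others.

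AURKB (chr17:8204733-8210600), the kinase of the complex, was at 14, 32.5 and 30.1 normalised counts in the untreated libraries, 52.2, 28.2 and 29.4 with DAC, 17.02, 18.6 and 17.6 with ATRA and 26.6, 16.9 and 19.4 with DAC+ATRA. Untreated replicate 1 was lower than all ATRA libraries, so that the groups overlapped. Its change with ATRA was -0.42 ± 0.35, with an interval of -1.15 to 0.31. The 3 ATRA libraries averaged 17.7 ± 0.804 (SD, n = 3).

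In the spindle assembly checkpoint, BUB1 (chr2:110637528-110678063), a kinase that recruits the checkpoint to kinetochores, was at 18.7, 38.97 and 20.7 normalised counts in the untreated libraries, 35.6, 50.2 and 27.2 with DAC, 9.86, 7.44 and 4.18 with ATRA and 12.6, 16.9 and 12.3 with DAC+ATRA. Every ATRA library lay below every other library, and untreated replicate 2 stood above the other untreated libraries. The ATRA change of -1.72 ± 0.38 (adjusted p = 0.00139) was the largest among the members, and the call was lost without ATRA replicate 3 or untreated replicate 2. With DAC+ATRA the change of -0.80 ± 0.38 did not pass (adjusted p = 0.105).

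BUB1B (chr15:40161023-40221123), or BUBR1, which inhibits the anaphase-promoting complex, was at 131, 118 and 77.2 normalised counts in the untreated libraries, 63.6, 118 and 129.5 with DAC, 56.4, 34.2 and 39.3 with ATRA and 36.4, 61.9 and 28.6 with DAC+ATRA. Its ATRA and DAC+ATRA libraries overlapped each other and lay below all untreated libraries. The change was -1.30 ± 0.31 with ATRA and -1.38 ± 0.31 with DAC+ATRA (adjusted p of 0.00264 and 0.00155). The ATRA call was lost without ATRA replicate 2 or 3 or untreated replicate 1 or 2, and the DAC+ATRA call without DAC+ATRA replicate 3 or untreated replicate 1. TTK (the MPS1 kinase) changed by -0.81 ± 0.19 and MAD2L1 (MAD2) by -1.06 ± 0.16 with ATRA, and both were called with DAC+ATRA too. The ATRA call of TTK was lost without ATRA replicate 3 or untreated replicate 1 or 2, and its DAC+ATRA call without DAC+ATRA replicate 2 or 3, untreated replicate 1 or 2, or with its highest transcript alone. The DAC+ATRA call of MAD2L1 was lost without DAC+ATRA replicate 2.

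BUB3 is described because its values stood out from those of its partners. BUB3 (chr10:123154402-123170467), the adaptor that carries BUB1 and BUBR1, was at 2341, 2104 and 1828 normalised counts in the untreated libraries, 1439, 1683 and 2329 with DAC, 2239.8, 1978 and 1867 with ATRA and 1337, 1138 and 1151 with DAC+ATRA. The ATRA libraries lay among the untreated ones, and the 3 DAC+ATRA libraries lay below all others. DAC replicates 1 and 2 lay below the untreated libraries, and DAC replicate 3 lay among them. The change was -0.041 ± 0.15 with ATRA (interval -0.35 to 0.26) and -0.79 ± 0.15 with DAC+ATRA (adjusted p = 0.000251). Against ATRA, DAC+ATRA differed by -0.75 ± 0.15 (adjusted p = 0.00106), a call kept whichever library was left out. Its changes with and without DAC did not differ past the threshold (interaction -0.52 ± 0.21, adjusted p = 0.216).

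**Figure D4:**
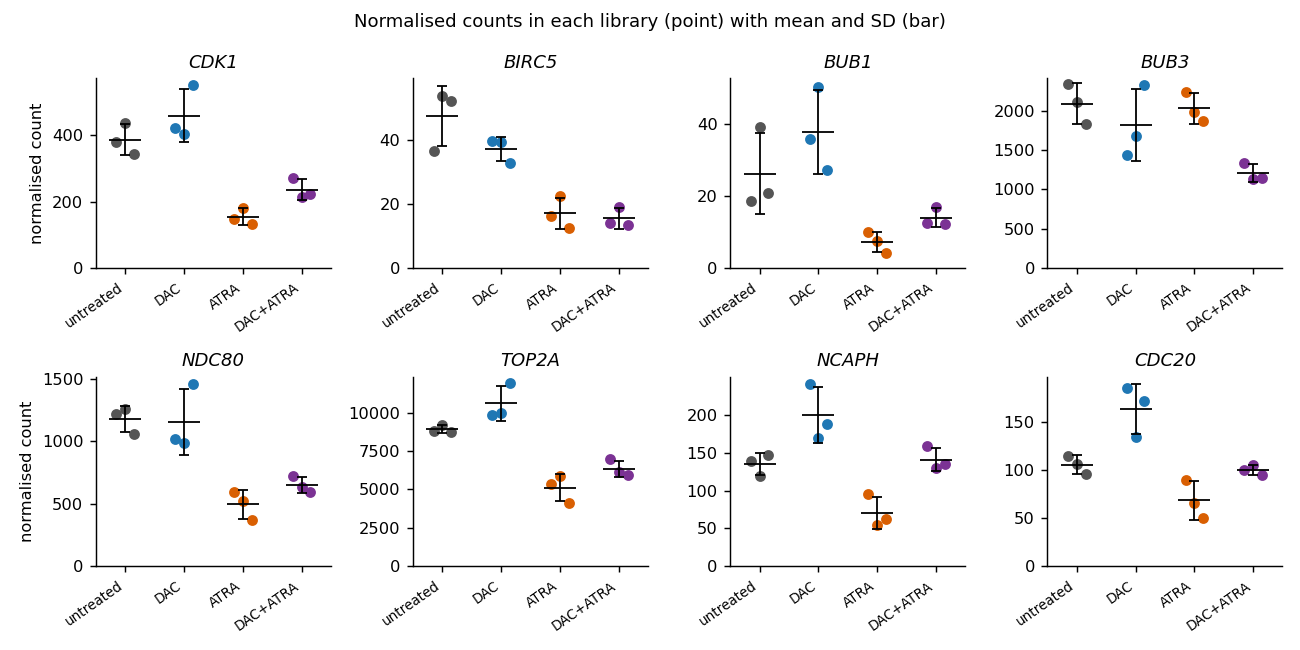
Normalised counts of 8 members in each of the 12 libraries (points), with the mean and SD of each group of 3. CDK1, BIRC5, BUB1, NDC80 and TOP2A are low in both groups with ATRA, and NCAPH and CDC20 in DAC+ATRA reach the untreated level. BUB3 is lowest in DAC+ATRA, and its DAC replicates 1 and 2 also lie below the untreated libraries.

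At the kinetochore, NDC80 (chr18:2571557-2616635), which binds the ends of microtubules, was at 1223, 1259 and 1060.1 normalised counts in the untreated libraries, 1020.3, 986 and 1463 with DAC, 598, 525 and 372 with ATRA and 719.5, 633 and 593 with DAC+ATRA. Its 6 libraries with ATRA were all lower than its 6 libraries without it. The change was -1.27 ± 0.17 with ATRA and -0.86 ± 0.17 with DAC+ATRA (adjusted p of 5.36e-06 and 0.00035). With ATRA, SPC24 of the same complex had a log2 change of -1.04 ± 0.15, CENPA (the histone H3 of centromeres) one of -1.01 ± 0.25 and CENPF (a kinetochore protein of G2 cells) one of -1.02 ± 0.13, all called. CENPF changed by -1.004 ± 0.13 with DAC+ATRA, which was called, whereas SPC24 (-0.41 ± 0.15) and CENPA (-0.53 ± 0.25) were not called there. The ATRA call of CENPA was lost without ATRA replicate 2 or 3 or untreated replicate 2 or 3. SPC25 and the kinesin CENPE, at 12.3 ± 1.53 and 25.1 ± 2.23 in untreated cells (SD, n = 3), were called in no comparison.

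Among the spindle genes, KIF11 (chr10:92574105-92655395), the motor Eg5 that pushes the poles apart, was at 2406, 2524 and 2139 normalised counts in the untreated libraries, 2431, 2534 and 3417 with DAC, 1394, 1288 and 865 with ATRA and 1398, 1298 and 1296 with DAC+ATRA. ATRA replicate 3 was the lowest library, and no library with ATRA reached the level of those without. KIF11 changed by -1.02 ± 0.15 with ATRA and by -0.82 ± 0.15 with DAC+ATRA (adjusted p of 2.86e-05 and 0.00028). KIF20B (chr10:89701590-89774939), a kinesin of cytokinesis, was at 33.4, 25.2 and 32.6 normalised counts in the untreated libraries, 13.99, 29.8 and 32.7 with DAC, 8.96, 10.4 and 6.69 with ATRA and 21, 9.01 and 22.5 with DAC+ATRA. Its ATRA libraries lay below all untreated and all DAC libraries, but DAC+ATRA replicate 2 lay among them. The ATRA change of -1.71 ± 0.39 (adjusted p = 0.00198) was the next after that of BUB1, and was lost without ATRA replicate 3 or untreated replicate 1 or 3.

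Other spindle motors and regulators fell with ATRA by similar amounts. They were KIF20A (MKLP2) with -1.05, KIF2C (MCAK, which takes microtubules apart) with -1.08, KIF4A (a motor on chromosomes) with -0.95, PRC1 (which bundles the midzone) with -0.96, DLGAP5 (which stabilises spindle microtubules) with -1.13 and ASPM (at spindle poles) with -1.10, on the log2 scale and with SE between 0.14 and 0.25. All but KIF4A and DLGAP5 were called with DAC+ATRA too. Of these DAC+ATRA calls, that of ASPM was kept whichever library was left out, while those of KIF20A, KIF2C and PRC1 were lost without DAC+ATRA replicate 3 or untreated replicate 2, among others. The ATRA call of PRC1 was lost without any one of ATRA replicates 2 and 3 and the 3 untreated replicates. KIF23 (MKLP1) and TPX2 were not called, nor was HMMR with ATRA, and their changes were -1.20 ± 0.51, -1.06 ± 0.44 and -0.84 ± 0.33. TPX2 (chr20:31739271-31801805), which activates aurora A, was at 22.6, 12.2 and 15.1 normalised counts in the untreated libraries, 26.7, 9.41 and 14.2 with DAC, 10.8, 6.70 and 5.02 with ATRA and 6.999, 9.01 and 13.3 with DAC+ATRA. With so few reads its groups overlapped in all but the ATRA comparison with untreated cells.

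NUSAP1 (chr15:41320794-41381050), which bundles spindle microtubules, had the smallest range of the members called in no comparison. It was at 10.9, 5.68 and 8.78 normalised counts in the untreated libraries, 12.7, 14.1 and 7.62 with DAC, 8.96, 11.9 and 4.18 with ATRA and 11.2, 11.3 and 7.15 with DAC+ATRA. All groups overlapped, and its interval for ATRA was -1.02 to 0.87, which spans both directions. Its exons are overlapped by OIP5-AS1 on the same strand.

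All 5 genes of chromosome structure were lower with ATRA. TOP2A (chr17:40388525-40417896), which untangles DNA, was at 8819.6, 9192 and 8744 normalised counts in the untreated libraries, 9853, 9978 and 11934 with DAC, 5371, 5853 and 4128 with ATRA and 6953, 6113 and 5956 with DAC+ATRA. Each DAC library was above each untreated one, and each DAC+ATRA library lay between the ATRA and the untreated libraries. Its change was -0.82 ± 0.12 with ATRA and -0.50 ± 0.12 with DAC+ATRA (adjusted p of 2.66e-05 and 0.00313), and the latter call was lost without DAC+ATRA replicate 2 or 3 or untreated replicate 1 or 2. Of the condensin subunits, NCAPD2 changed by -0.90 ± 0.14, NCAPG by -1.12 ± 0.14 and NCAPH by -0.96 ± 0.20 with ATRA. MKI67, the proliferation marker Ki-67, changed by -1.33 ± 0.18 with ATRA and by -1.16 ± 0.18 with DAC+ATRA.

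In anaphase, CDC20 (chr1:43358981-43363203), which activates the anaphase-promoting complex, was at 115, 107 and 95.97 normalised counts in the untreated libraries, 186, 135 and 172 with DAC, 89.6, 66.2 and 50.2 with ATRA and 101, 106 and 94.96 with DAC+ATRA. All DAC libraries lay above and all ATRA libraries below the untreated ones, and the DAC+ATRA libraries overlapped the untreated ones. None of its changes passed at 0.01, with adjusted p of 0.0159 for ATRA and 0.0464 for DAC. The other 3 genes were called with ATRA, UBE2C (the ubiquitin-conjugating enzyme of that complex) with -1.04 ± 0.23, PTTG1 (securin) with -1.34 ± 0.22 and ESPL1 (separase) with -0.99 ± 0.17. PTTG1 and ESPL1 were also called with DAC+ATRA, and both of these calls were lost without DAC+ATRA replicate 2 or 3 or untreated replicate 1 or 2. The UBE2C call was lost without ATRA replicate 3 or untreated replicate 1 or 2. For cytokinesis, ANLN (anillin) changed by -1.07 ± 0.24 with ATRA and -0.94 ± 0.24 with DAC+ATRA, both called, and both calls were lost without untreated replicate 1, among others. ECT2 (chr3:172750682-172821474), which activates RhoA at the furrow, was at 12.4, 9.74 and 11.9 normalised counts in the untreated libraries, 15.3, 9.41 and 20.7 with DAC, 8.96, 2.98 and 3.34 with ATRA and 2.80, 13.5 and 12.3 with DAC+ATRA. Its ATRA libraries lay below the untreated ones but the spread was wide, and the change of -1.15 ± 0.53 did not pass (adjusted p = 0.104).

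With DAC alone no member was called by limma, where 7.97% of all genes tested were called in either direction. At an unadjusted p under 0.05, 4 members passed by limma (SPC24, NCAPH, CDC20 and PTTG1, all with positive changes), where 28.7% of all genes did so. By the other tools these were 5 by DESeq2, 5 by edgeR with TMM factors and 6 by edgeR with the deposited scaling, and none of these tools called a member at an adjusted p under 0.01. The median change was 0.19, against -0.0041 for all genes, and 31 of the 47 changes were positive. For genes with many reads the intervals were narrow, with -0.014 to 0.50 for TOP2A and -0.09 to 0.55 for KIF11, both of which exclude a fall of the size seen with ATRA. Every DAC library lay above every untreated library for 10 members and below for 0, where 16.1% of all genes had every DAC library above.

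With DAC+ATRA against untreated cells, 23 members were lower and 0 higher, where 14.4% of all genes were called lower. By role these were 4 of 9 of mitotic entry, 1 of 4 of the passenger complex, 4 of 5 of the checkpoint, 2 of 6 of the kinetochore, 5 of 12 of the spindle, 4 of 5 of chromosome structure, 2 of 4 of anaphase and 1 of 2 of cytokinesis. The median change was -0.71 (all genes -0.0039), and 45 of the 47 changes were negative. NUSAP1 (0.22) and NCAPH (0.06) had positive ones. Of the 34 genes called lower with ATRA, 12 were not called here. The group means ran in the order ATRA, DAC+ATRA, untreated for 36 members, while DAC+ATRA lay below ATRA for 9. These orders share the libraries of each group and are given as a description. The count fell to 13 without DAC+ATRA replicate 2, without DAC+ATRA replicate 3 or without untreated replicate 2, and 11 of the 23 calls were kept whichever library was left out.

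ATRA was also given on top of DAC, and DAC+ATRA against DAC compares 6 libraries other than those compared in ATRA against untreated. All of these were labelled 72 h. Here 27 members were lower and 0 higher, where 9.74% of all genes tested were called lower, and all 47 changes were negative, with a median of -0.79 (all genes -0.00039). Both comparisons called 25 of the members lower, that is 25 of the 34 called with ATRA alone and 25 of the 27 called on top of DAC, where 7.40% of all genes tested were called lower in both. The 2 comparisons come from 1 fit whose spread is estimated from all 12 libraries, so their calls are not independent. BUB3 and HMMR were called on top of DAC only. The BUB3 call (-0.56 ± 0.15) was lost without DAC replicate 2 or 3, DAC+ATRA replicate 2 or 3, ATRA replicate 2 or untreated replicate 2. It was also lost with no filter on low values, with a replicate block and in a fit of the compared groups alone. HMMR (chr5:163460203-163491941), a protein of spindle poles, is named for its call on top of DAC only. It was at 35.6, 42.3 and 94.7 with DAC and 18.2, 14.6 and 22.5 with DAC+ATRA. DAC replicate 3 stood far above the other DAC libraries. The change of -1.48 ± 0.33 (limma adjusted p = 0.00216) was not called without DAC replicate 3 or DAC+ATRA replicate 2, or in a fit of the compared groups alone.

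Among the members called in both, CENPF changed by -1.02 ± 0.13 on adding ATRA to untreated cells and -1.22 ± 0.13 on adding it to DAC, ASPM by -1.10 ± 0.14 and -1.20 ± 0.14, PTTG1 by -1.34 ± 0.22 and -1.37 ± 0.22, and KIF11 by -1.02 ± 0.15 and -1.05 ± 0.15. Others of the 25 had smaller changes on adding ATRA to DAC, such as NDC80 (-1.27 ± 0.17 and -0.81 ± 0.17), MKI67 (-1.33 ± 0.18 and -0.91 ± 0.18) and KIF4A (-0.95 ± 0.14 and -0.54 ± 0.14), and AURKA had a larger one (-0.91 ± 0.25 and -1.37 ± 0.25). The difference between them is the interaction, that is, how far DAC+ATRA departs from the sum of the single changes. No member was called for it, where 1.60% of all genes were called in either direction. At an unadjusted p under 0.05, limma found 3 (BUB3, KIF20B and KIF4A), where 14.8% of all genes passed, DESeq2 2 and edgeR 2 with either scaling. The largest of the 3 was KIF20B, with 1.18 ± 0.56 and an interval of 0.0052 to 2.35, while KIF11 had an interval of -0.49 to 0.42 and CENPF one of -0.60 to 0.20. The interaction was positive for 30 of the 47, with a median of 0.21 (all genes 0.034), and without ATRA replicate 3 it was -0.033.

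**Figure D5:**
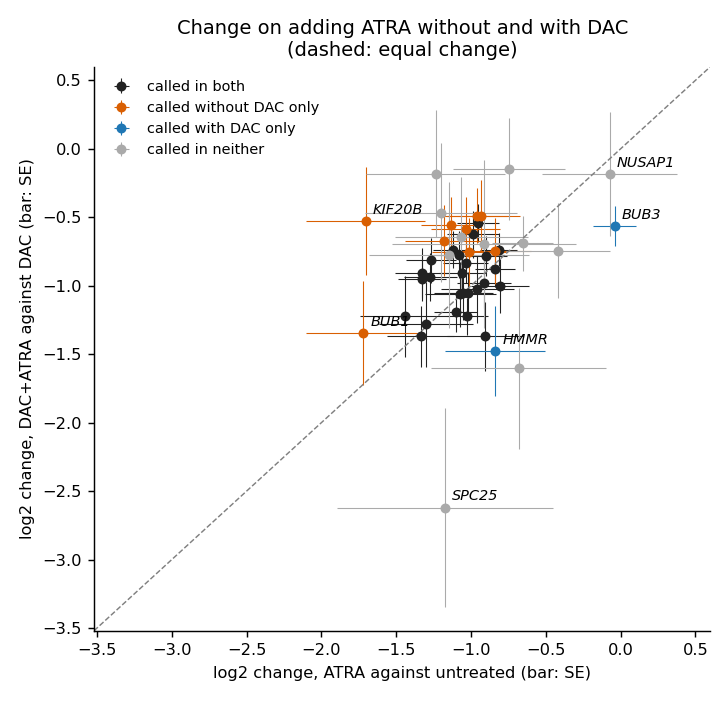
Log2 change of each tested member on adding ATRA to untreated cells (x axis) and to DAC-treated cells (y axis), with bars for the SE and a dashed line of equal change. The 25 members called lower in both comparisons (black) lie between -1.44 and -0.81 on the x axis and between -1.37 and -0.54 on the y axis, and BUB3 and HMMR (blue) were called with DAC only.

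DAC on top of ATRA raised few members. Against ATRA alone, 4 of the 47 were higher, where 6.47% of all genes tested were called higher, and 1 was lower, where 5.46% were called lower. The share of members in each direction was not far from that of all genes. The 4 higher genes are named because they were called, namely CDK1 (0.62 ± 0.16), SPC24 (0.63 ± 0.15), KIF4A (0.58 ± 0.14) and NCAPH (1.02 ± 0.20), and the lower one was BUB3. The CDK1 call lay at the threshold (adjusted p = 0.00923). It was lost with TMM scaling, both edgeR fits, the replicate block, a pseudocount of 0.1, all gene symbols, no filter, the compared groups alone or the highest transcript, and without most single libraries, with adjusted p over all alternatives from 0.00227 to 0.0588. The SPC24 call was also lost in a fit of the compared groups alone. NCAPH (chr2:96335766-96377091), a subunit of condensin, was at 138, 119 and 147 normalised counts in the untreated libraries, 240.4, 169 and 188 with DAC, 94.97, 54.3 and 62.7 with ATRA and 158, 129 and 135 with DAC+ATRA. All its DAC+ATRA libraries lay above all its ATRA libraries and overlapped the untreated ones. The calls depended on single libraries, since 2 were left without ATRA replicate 3, DAC+ATRA replicate 1 or DAC+ATRA replicate 2, and 3 without ATRA replicate 2 or DAC+ATRA replicate 3. Of the members, 39 had a positive change, with a median of 0.34 (all genes 0.034), which was 0.18 without ATRA replicate 3.

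The single transcripts behind these sums mostly moved alike. The 50 genes had 152 rows, of which 54 in 42 genes held at least 10 normalised counts on average. All 54 were lower on average with ATRA than in untreated cells, where 49.8% of the 15899 rows of the table at that level were lower. In 48 of them the libraries did not overlap, where 22.8% of all such rows had every ATRA library below every untreated one. With DAC+ATRA 50 were lower on average, where 50.1% of all such rows were. In 27 genes a single transcript held over 90% of the gene's counts. CDK1 and CCNA2 each had rows that parted with DAC+ATRA. For CDK1, ENST00000448257.6 averaged 325 in untreated cells, 126 with ATRA and 178 with DAC+ATRA, whereas ENST00000614696.4 averaged 46.6, 20.6 and 50.6. For CCNA2, ENST00000274026.10 averaged 20.3, 5.23 and 7.66, whereas ENST00000618014.1 averaged 33.4, 18.3 and 33.9. The level of both genes in DAC+ATRA thus depends on which transcripts are counted. ENST00000614696.4 and ENST00000618014.1, the rows near the untreated level, are not listed in GENCODE release 44, whereas the other rows named here are. ENST00000618014.1 also varied within a group, at 68.7, 64.3 and 8.71 in the DAC libraries. These 2 genes were singled out after their values were seen.

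Members with and without a CHR had similar medians with ATRA. The median change was -1.02 among the 31 tested members with a CHR in their window, of which 23 were called, and -1.05 among the 9 without one, of which 7 were called. These are descriptions of small sets of genes chosen for mitosis.

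Other mitotic genes outside the 50 were also lower with ATRA, with a median nearer to 0. Of 116 tested genes in 5 lists (kinetochore and centromere, spindle and centrosome, chromosome structure, the anaphase-promoting complex, and other kinases and regulators), 52 were lower and 1 was higher with ATRA, with a median of -0.60. Of all genes tested, 14.0% were called lower and 12.1% higher. The shares called lower ranged from 18 of 31 spindle, centrosome and cytokinesis genes (58.1%) to 2 of 16 genes of the anaphase-promoting complex (12.5%). The latter share was not above that of all genes. Core subunits of that complex are made through the whole cell cycle. The 2 called lower in its list were UBE2S (-0.92 ± 0.17), which extends ubiquitin chains, and FBXO5 (-0.59 ± 0.16), an inhibitor of the complex. Large falls were seen for PBK (-1.81 ± 0.21), a mitotic kinase, ZWINT (-1.67 ± 0.29), a kinetochore protein, and CKAP2 (-1.66 ± 0.22), which stabilises microtubules. The gene that was higher was PIMREG (3.98 ± 0.24), whose exons overlap those of PITPNM3 on the opposite strand.

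Of 28 tested regulators of mitotic transcription, 10 were lower and 0 higher with ATRA, with a median of -0.51. They held E2F1 (-1.34 ± 0.19) and E2F2 (-1.50 ± 0.17), factors of the G1/S transition, and the related E2F7 (-1.84 ± 0.46). Also among them, named here for their role at CHR promoters, were MYBL2 (-0.88 ± 0.22) and LIN9 (-1.07 ± 0.22). With DAC+ATRA against ATRA, 6 of the 28 were higher, among them E2F2 (1.64 ± 0.17), E2F7 (2.16 ± 0.46) and cyclin D2, CCND2 (1.51 ± 0.09), and 2 were lower, among them the CDK4/6 inhibitor CDKN2C (-1.15 ± 0.18). In that comparison 6.47% of all genes tested were called higher and 5.46% lower. Of 7 genes of early G1 and quiescence, 2 were higher with ATRA, BTG2 (2.65 ± 0.12) and KLF6 (1.72 ± 0.19), and 3 were lower. The median was -0.12, and 12.1% of all genes tested were called higher and 14.0% lower. With DAC+ATRA against untreated cells, 0 of the 7 were higher and 3 were lower, with a median of -0.40, where 14.5% of all genes were called higher and 14.4% lower.

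DNA replication genes, which are transcribed at G1/S, were lower with ATRA too, and their medians with DAC+ATRA lay nearer to 0 than those of the mitosis genes. With ATRA, 29 of 54 tested were lower and 1 (MCM7, whose exons overlap AP4M1 on the opposite strand) was higher, with a median of -0.79, beside -1.04 for the mitosis genes. Of all genes tested, 14.0% were called lower with ATRA. With DAC+ATRA against untreated cells 6 of 54 were lower, with a median of -0.22, beside 23 of 47 and -0.71. These 6 were 11.1% of the replication genes, under the 14.4% of all genes called lower there. Against ATRA alone, 15 of 54 replication genes were higher with DAC+ATRA, beside 4 of 47 mitosis genes, with medians of 0.52 and 0.34. In that comparison 6.47% of all genes were called higher. The replication genes called higher included CCNE2 (1.43 ± 0.30), CDC6 (1.29 ± 0.20) and CLSPN (1.28 ± 0.18). The difference between both lists was not tested, since genes of a list are not independent of each other.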

How the data were processed

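Total RNA of MOLM-13 was depleted of ribosomal RNA and sequenced as stranded paired-end libraries. Per the submitters' processing notes, the authors used FastQC, STAR, HTSeq and DESeq2 on hg38, and tool versions are not given in the sources used here. The deposited values are a normalised signal, the read count of each transcript divided by the size factor of its library. All values (100%, tolerance 0.001) were whole multiples of 1 step per library, so the reads could be recovered. Rows were summed per symbol, and columns named CTRL were taken as untreated. Of the rows, 88.9% matched a transcript of GENCODE release 44 (GRCh38), from which biotypes and coordinates were taken.

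A single limma 3.58.1 fit (R 4.3.3, moderated with a mean trend) covered all 12 libraries and the 10642 protein-coding symbols that reached 10 normalised counts in 3 or more of them. Values entered as log2(normalised count + 1), which understates changes of low genes. Benjamini-Hochberg adjustment ran over all genes with 0.01 as the limit, after the study's methods. As alternatives on whole reads, DESeq2 1.42.0 and edgeR 4.0.16 called 34 members each for ATRA against untreated, as limma did, and for DAC+ATRA against untreated 26 and 25. Intervals are 95% intervals of the limma fit. The fit was first tested on simulated data. Columns of no sample numbered 0.

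Values in every library are given for the first gene of each role, for the 3 largest called changes of ATRA and of DAC+ATRA against untreated, and for the 5 members with the smallest range among those called nowhere. Genes outside the members come from the lists, at most 4 per list by called change. BUB3, HMMR, SPC24, KIF4A, NCAPH, MCM7, MYBL2 and LIN9 were named after their values were seen. The members, lists and tests were chosen with earlier results of these data known, so the lists give no independent support. Replicate libraries all differed by more than sampling noise. The alternatives were other scalings, tests, pseudocounts, filters, gene sets, a replicate block and leaving out each library in turn.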

Additional observations from a re-analysis of the deposited data

How the results depend on the processing

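Across 27 other settings, of which 12 left out 1 library each, no called change of a member reversed. Of 6901 values of single members under these settings, 6662 kept their side of the threshold, 194 lost it and 45 gained it. At an adjusted p under 0.05, 1 member (CDC20) was called with DAC. With a required change of over 2-fold, 22 members were called for ATRA against untreated, 7 for DAC+ATRA against untreated, 12 for DAC+ATRA against DAC and 1 for DAC+ATRA against ATRA. A fit of the compared groups alone called 3 for DAC+ATRA against ATRA, from fewer libraries. Shares of all genes under the cuts and settings of this section are not given here, so these counts describe the members only.

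Leaving out single libraries gave 23 to 34 members for ATRA against untreated (median -1.17 to -0.84), 13 to 26 for DAC+ATRA against untreated, 19 to 30 for DAC+ATRA against DAC, 2 to 5 for DAC+ATRA against ATRA (median 0.18 to 0.41) and 0 for DAC and for the interaction (median -0.033 to 0.23). All groups share 1 estimate of the spread.

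With a replicate block the counts were 31 for ATRA against untreated, 24 for DAC+ATRA against untreated, 27 for DAC+ATRA against DAC, 4 for DAC+ATRA against ATRA, and 0 for DAC and the interaction. Libraries that share a number had correlations of their deviations of -0.263 to 0.114 over genes (n = 18 pairs). Libraries with different numbers had -0.165 to 0.246 (n = 36 pairs). No deviation shared by number was seen, which cannot show whether the libraries were paired. Total-count scaling moved the median of all genes with ATRA from -0.038 to -0.089. The library with the fewest counted reads had 4671214, and some members had few reads, such as FOXM1 with 2 to 17 per library. Reads were counted per transcript, and FOXM1 had 4 transcript rows. The parts of depth and of counting per transcript in such low counts were not tested.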
